A study of Mus musculus with 8 samples.

Results

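The 10 genes described here had few or no reads in some ventricle libraries and many in others, and the genotype labels did not separate the low libraries from the high ones. They are Slc6a16, Ifi202b, Gm12840, Spr-ps1, Gm8730, Gm14150, Gm9825, Gm15920, Gm5900 and Gm6969, which are 10 of the 38293 genes in the deposited count table. They were chosen for this pattern of counts, so the pattern itself is given as a description with no test. All 10 were found in the table by Ensembl identifier, and all 10 passed the filter on low counts.

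RNA came from cardiac ventricle of mice at 8 weeks of age, left and right ventricle mixed, in 4 libraries of mice heterozygous for a deletion in the plakophilin-2 gene (HET, PKP2 c.1755delA/WT in the design text, although the name of the count table gives another deleted base) and 4 libraries of wild-type mice (WT). No drug or other treatment is named, and neither is a strain. Libraries were made from poly(A) RNA with a stranded kit. The labels do not say that each library came from its own animal, so spread between libraries is spread between these samples.

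Slc6a16 belongs to the family of sodium-dependent transporters that carry neurotransmitters and amino acids, and its own substrate is not established. Ifi202b is an interferon-inducible gene of the Ifi200 cluster, whose protein binds DNA and opposes the DNA sensor Aim2, and its RNA level is known to differ between inbred mouse strains. A processed pseudogene is a copy of a messenger RNA that was written back into the genome, usually without introns and without the parent's promoter. Because it resembles its parent closely, a short read can match both places equally well, and the counts then depend on how such reads were placed.

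Total counts were 32397302 to 41234883 per library. The cardiomyocyte markers Myh6, Tnnt2, Actc1, Ryr2, Tnni3 and Myl2 were all at 1357 CPM (read counts scaled to a common library size) or more in every library. The atrial markers Sln and Myl7 did not exceed 0.0480 and 0.112 CPM, although Nppa, also on that list, stood at 217.8 to 461.2 CPM. Pkp2 was at 88.2 to 105.5 CPM in HET and 148.4 to 169.0 CPM in WT, so the genotype labels held in all 8 libraries. WT replicates 3 and 4 stood apart: of 111 genes with a wide step between libraries, defined further on, 28 were high in WT replicate 3 alone and 36 in WT replicate 4 alone. In WT replicate 3 the summed level of 22 interferon response genes was 1415 CPM, against 237 to 345 CPM in the other 7 libraries. Genes high in WT replicate 4 alone included Alb and Apoa1, which are known as liver genes.

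The digits in the sample titles divide the libraries into 3 sets by their leading part, with no word on what it stands for. Title set 1 holds HET replicates 1, 3 and 4 and WT replicate 1. HET replicate 2 and WT replicates 3 and 4 form title set 2, and WT replicate 2 is alone in title set 3.

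Slc6a16 (ENSMUSG00000094152) lies on chromosome 7 at 45241085 to 45273367 on the plus strand of GRCm38, with up to 13 exons. Its counts were 0, 0, 523 and 499 in HET replicates 1 to 4 and 596, 0, 409 and 405 in WT replicates 1 to 4. It was thus silent in libraries of both genotypes and abundant in others of both. In bulk ventricle RNA, fewer cells that make a transcript and less of it per cell cannot be told apart. A count of 0 allows up to 3 counts, which is 0.0754 to 0.0936 CPM in these 3 libraries, so the lowest of the 5 other libraries (9.88 CPM) was at least 106-fold higher. Within those 5, the libraries of title set 1 stood at 13.9, 14.0 and 14.3 CPM and those of title set 2 at 9.88 and 10.4 CPM. None of the 2816 stretches of 50 bases in its longest transcript occurred in an annotated transcript of another gene, and copies outside annotated transcripts were not searched.

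Ifi202b (ENSMUSG00000026535, chromosome 1, 173962568 to 173982744, minus strand, 7 exons) had 73, 64, 72 and 117 counts in HET and 103, 87, 0 and 0 in WT. The 2 libraries at 0 were WT replicates 3 and 4, the same libraries that stood apart above, and the other 6 were at 1.92 to 3.28 CPM. With a floor of 3 counts per library, the lowest of the 6 was at least 25.0-fold above the libraries at 0. None of its 50-base stretches was shared with an annotated transcript of another gene, and its closest relative among coding transcripts, Ifi204, matched at 73.1% of aligned bases.

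Gm12840 (ENSMUSG00000086320), a long intergenic non-coding RNA of 2 exons on chromosome 4 at 117700188 to 117700923 on the plus strand, was low in the same 2 libraries. Its counts were 368, 193, 352 and 310 in HET and 352, 193, 2 and 0 in WT. Between these extremes lay an intermediate level: HET replicate 2 and WT replicate 2 were at 6.02 and 4.85 CPM, and the 4 libraries of title set 1 were at 8.46 to 9.75 CPM. Of its 578 stretches of 50 bases, 265 also occur in transcripts of Gm20186, so part of its reads may match both genes.

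Spr-ps1 (ENSMUSG00000068303) is a transcribed pseudogene that kept the structure of a gene copy, on chromosome 6 at 85152621 to 85156223 on the plus strand, 14.9 kb from Spr itself, which encodes sepiapterin reductase of tetrahydrobiopterin synthesis. It had 86, 79, 89 and 0 counts in HET and 0, 96, 80 and 113 in WT. Each genotype therefore held 1 silent library, HET replicate 4 and WT replicate 1. The 6 other libraries were at 1.93 to 2.89 CPM, at least 23.0-fold above the floor of 3 counts in the silent ones. Of its 3437 annotated exonic bases, only the 605-base pseudogene transcript was compared: it matched Spr at 89.5% of aligned bases, and 14.6% of its 50-base stretches were shared with another gene's transcript.

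**Figure D1:**
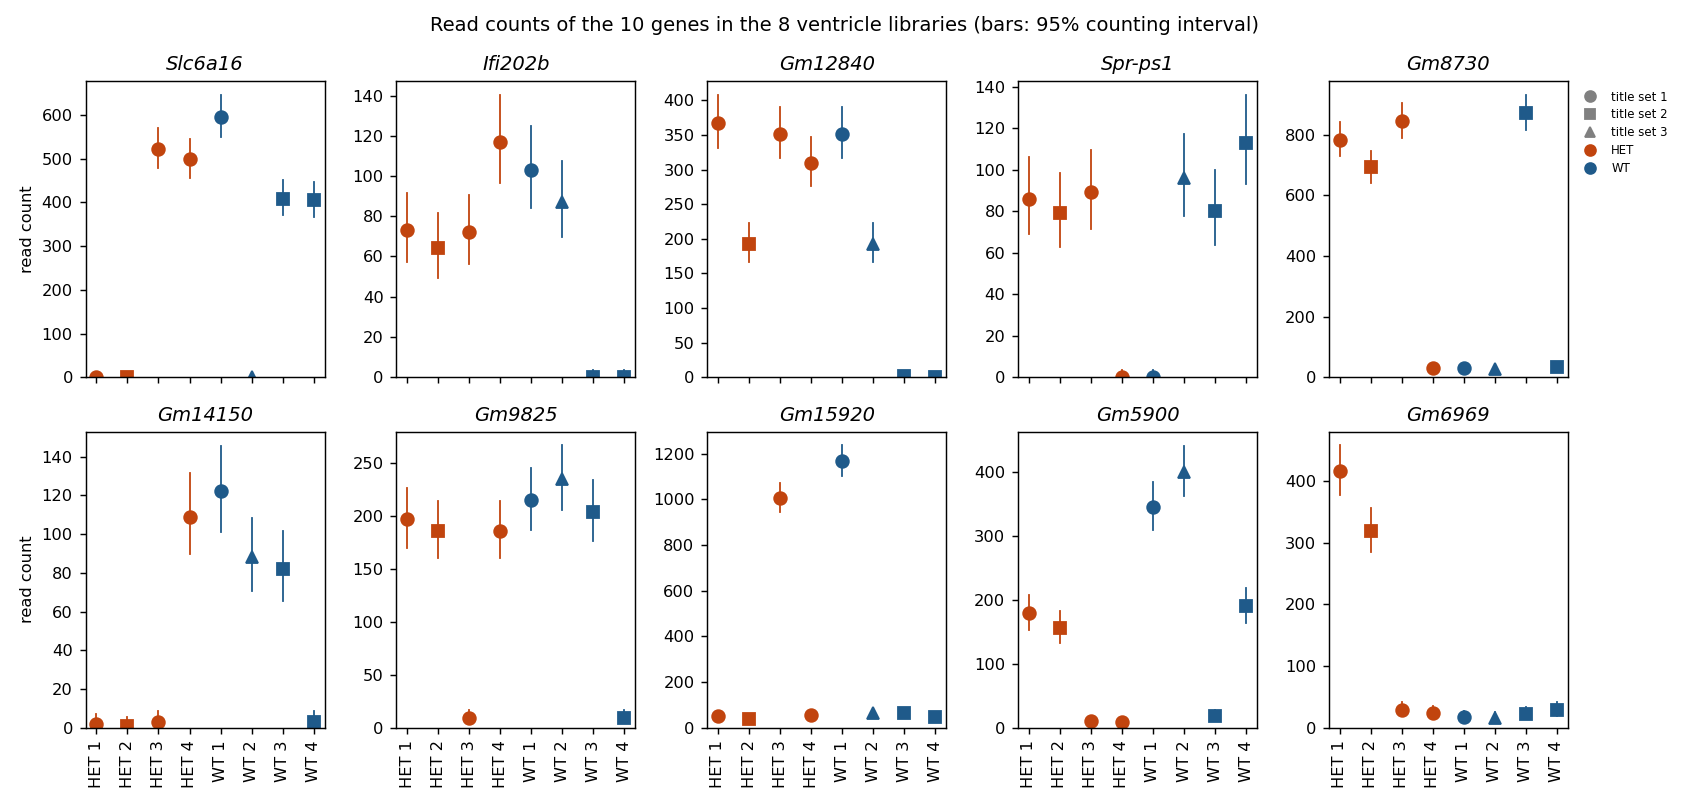
Read count of each of the 10 genes (y axis, linear, own scale per panel) in the 8 libraries (x axis), coloured by genotype with the title set as the marker shape, and bars for the 95% counting (Poisson) interval. Low and high libraries lie far outside each other's counting intervals, and 9 different sets of libraries were high among the 10 genes.

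The other 6 genes are processed pseudogenes of a single exon, and each aligned to a coding gene over its whole length. Below, a 90-base window of each but Gm14150 is printed above the same window of its closest coding transcript, with the bases that differ in capitals. Each was taken from a stretch of the coding part that aligned without gaps, where it held the most base differences. Positions of the pseudogene windows, on GRCm38, are chr8:102865352-102865441 minus strand for Gm8730, chr6:7983124-7983213 minus strand for Gm9825, chr5:130188404-130188493 plus strand for Gm15920, chr7:104950179-104950268 minus strand for Gm5900 and chr12:24638702-24638791 minus strand for Gm6969, and all sequences are from GENCODE M21 transcripts.
Gm8730: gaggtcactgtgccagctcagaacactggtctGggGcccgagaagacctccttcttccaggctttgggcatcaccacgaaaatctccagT
Rplp0: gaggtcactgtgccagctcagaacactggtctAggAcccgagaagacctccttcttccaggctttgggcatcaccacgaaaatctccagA
Gm9825: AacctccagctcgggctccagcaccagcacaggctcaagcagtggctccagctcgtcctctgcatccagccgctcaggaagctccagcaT
Rnps1: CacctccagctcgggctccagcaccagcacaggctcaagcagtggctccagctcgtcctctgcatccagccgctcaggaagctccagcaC
Gm15920: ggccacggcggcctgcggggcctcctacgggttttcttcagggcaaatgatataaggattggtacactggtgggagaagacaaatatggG
Ndufa12: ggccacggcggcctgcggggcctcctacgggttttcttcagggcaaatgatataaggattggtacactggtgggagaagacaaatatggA
Gm5900: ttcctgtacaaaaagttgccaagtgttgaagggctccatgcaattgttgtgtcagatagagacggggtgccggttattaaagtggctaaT
Lamtor3: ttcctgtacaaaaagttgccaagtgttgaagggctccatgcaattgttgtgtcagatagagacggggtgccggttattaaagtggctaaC
Gm6969: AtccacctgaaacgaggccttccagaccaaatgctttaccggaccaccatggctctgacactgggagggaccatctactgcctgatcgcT
Cox7a2l: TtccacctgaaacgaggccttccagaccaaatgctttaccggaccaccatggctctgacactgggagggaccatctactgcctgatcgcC

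The windows printed held 1 to 3 differences. Over the whole alignments, all 6 pairs included, 2 to 17 bases differed outside gaps, and the pairs of Gm14150 and Gm6969 also have gaps. Over the whole pseudogene, identity was 98.7% for Gm8730 with Rplp0, 98.6% for Gm14150 with Tuba1b, 99.4% for Gm9825 with Rnps1, 99.5% for Gm15920 with Ndufa12, 99.5% for Gm5900 with Lamtor3 and 97.7% for Gm6969 with Cox7a2l. The share of 50-base stretches found in another gene's transcript was 69.3% to 78.8% over these 6, and 36.1% to 59.1% for stretches of 100 bases. Their counts are therefore uncertain to the extent that such reads were split or dropped.

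Gm8730 (ENSMUSG00000063696, chromosome 8, 102864845 to 102865798, minus strand) had 783, 692, 845 and 29 counts in HET and 31, 26, 871 and 33 in WT. The levels fell into 2 narrow ranges, since 4 libraries were at 20.7 to 22.5 CPM, and 4 at 0.654 to 0.845 CPM. High libraries were HET replicates 1, 2 and 3 and WT replicate 3. Its parent Rplp0 (chromosome 5, 115559467 to 115563727), which encodes a protein of the large ribosomal subunit's stalk, was at 308, 319, 311 and 398 CPM in HET and 385, 433, 311 and 425 CPM in WT. All 4 libraries with high Gm8730 counts had lower Rplp0 than all 4 others. Adding both genes did not close this difference, since the sum was 329 to 341 CPM in the first 4 and 386 to 434 CPM in the others.

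Gm14150 (ENSMUSG00000082809, chromosome 2, 151458956 to 151460309, plus strand) had 2, 1, 3 and 109 counts in HET and 122, 88, 82 and 3 in WT. Low libraries were at 0.0312 to 0.0799 CPM and high ones at 1.98 to 3.06 CPM, with HET replicate 4 alone high in its group and WT replicate 4 alone low. Tuba1b (chromosome 15, 98931425 to 98934565), an alpha-tubulin gene of the microtubule, was its best match among 11 coding genes that aligned. Tuba1b stood at 18.1 to 25.9 CPM, and its levels overlapped between libraries with high and low Gm14150.

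Gm9825 (ENSMUSG00000096403, chromosome 6, 7982541 to 7983383, minus strand) had 197, 186, 9 and 186 counts in HET and 215, 235, 204 and 9 in WT. Only HET replicate 3 and WT replicate 4 were low, at 0.240 and 0.230 CPM, and the other 6 libraries spread only 1.20-fold, from 4.93 to 5.91 CPM. Rnps1 (chromosome 17, 24414565 to 24425901), whose protein takes part in splicing and sits in the exon junction complex, was at 28.0 and 24.8 CPM in those 2 libraries and 18.3 to 20.7 CPM in the other 6. With Gm9825 and Rnps1 added, the 8 libraries ran from 23.2 to 28.2 CPM with overlap between the 2 libraries and the other 6, a 1.21-fold range against 1.53-fold for Rnps1 alone.

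Gm15920 (ENSMUSG00000080893) lies on chromosome 5 at 130188395 to 130188796 on the plus strand, inside an intron of Rabgef1, a gene of the same strand. It had 52, 37, 1008 and 55 counts in HET and 1168, 63, 66 and 45 in WT. HET replicate 3 and WT replicate 1 were at 26.9 and 28.1 CPM, and the other 6 libraries were at 1.15 to 1.59 CPM. Rabgef1 stood at 19.9 to 25.8 CPM, with HET replicate 3 the highest and WT replicate 1 (22.2 CPM) among the others. Ndufa12 (chromosome 10, 94198720 to 94221443), a subunit of mitochondrial complex I, was at 99.9 CPM in HET replicate 3 and 109.2 CPM in WT replicate 1, and at 123.4 to 135.5 CPM in the other 6. The sum of Gm15920 and Ndufa12 was 125.0 to 137.2 CPM over all 8 libraries, a 1.10-fold range against 1.36-fold for Ndufa12 alone.

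Gm5900 (ENSMUSG00000094685, chromosome 7, 104949915 to 104950289, minus strand) had 179, 157, 10 and 9 counts in HET and 346, 401, 18 and 190 in WT. Here 3 levels were seen. HET replicates 3 and 4 and WT replicate 3 were at 0.253 to 0.435 CPM, HET replicates 1 and 2 and WT replicate 4 at 4.74 to 4.90 CPM, and WT replicates 1 and 2 at 8.31 and 10.1 CPM. Lamtor3 (chromosome 3, 137918506 to 137928900), a subunit of the Ragulator complex on lysosomes, ran in the opposite order at its ends: it was lowest in WT replicates 1 and 2, at 28.5 and 29.9 CPM, and highest in HET replicates 3 and 4, at 36.2 and 36.4 CPM. In the other library with a low Gm5900 count, WT replicate 3, Lamtor3 was at 32.0 CPM, which lies within the range of the intermediate libraries (31.7 to 34.1 CPM).

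Gm6969 (ENSMUSG00000066553, chromosome 12, 24638669 to 24639010, minus strand) had 416, 319, 29 and 24 counts in HET and 17, 16, 22 and 29 in WT. It was the only member high in 1 genotype alone, in HET replicates 1 and 2 at 11.0 and 9.95 CPM, and the 6 other libraries were at 0.402 to 0.773 CPM. Cox7a2l (chromosome 17, 83501918 to 83517330), which encodes a factor that helps assemble respiratory supercomplexes, stood at 94.0 to 108.7 CPM with the high libraries of Gm6969 inside that range (104.6 and 96.9 CPM).

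**Figure D2:**
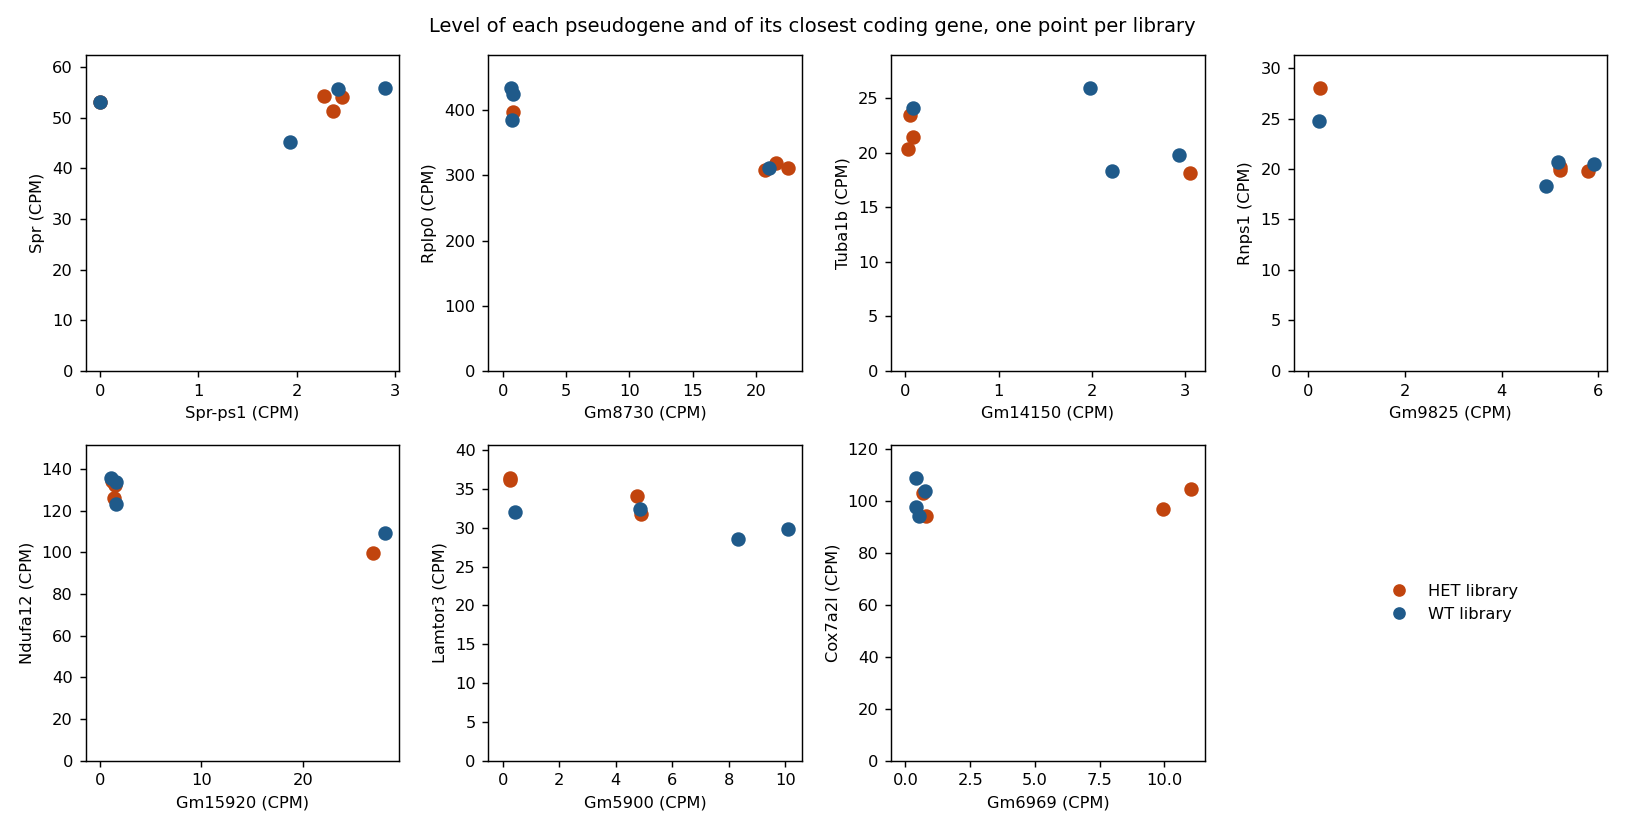
Level of each of 7 pseudogenes (x axis, CPM) against its closest coding gene (y axis, CPM, from 0), 1 point per library, coloured by genotype. For Gm8730, Gm9825 and Gm15920 the libraries at the right lie lower than those at the left, and for Spr-ps1, Gm14150 and Gm6969 they overlap in height. Lamtor3 is lowest where Gm5900 is highest, with overlap between.

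In 3 of the 7 pseudogenes, then, every library with high pseudogene counts had less of the coding gene than every library with low counts. Of 17 other pseudogenes with a step of 5-fold or more between libraries, 8 (47.1%) showed the same order, as did 4 of 58 (6.9%) pseudogenes with a smaller step. The 8 include Gm9625 and the 4 include Gm14165, and the closest coding gene of both is Rplp0, as for Gm8730. Their high libraries are the same as those of Gm8730, so the same Rplp0 levels were counted in all 3 numbers. Without WT replicate 3 the order also held for Gm14150 and Gm5900, and with scaling by library size alone it held for Gm5900. No test was made of this order, because the pseudogene's own counts define the low and high libraries, and whether reads of the coding gene were placed on the pseudogene was not tested. For Gm6969 and Spr-ps1, adding pseudogene and coding gene widened the range of the coding gene alone, from 1.16- to 1.22-fold and from 1.23- to 1.24-fold. It narrowed the range for Gm14150 (1.43- to 1.37-fold), Gm5900 (1.28- to 1.23-fold) and Gm8730 (1.40- to 1.32-fold), as for Gm9825 and Gm15920 above.

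Genotype did not separate the low from the high libraries in any of the 10 genes. CPM ranges of HET and WT overlapped for all 10, and 3.78% of the 14567 tested genes had ranges that did not overlap, but the members were chosen for variation regardless of genotype, so nothing is read from this. With edgeR's quasi-likelihood test, 0 of 10 members passed an adjusted p of 0.05 between HET and WT, against 0.00686% of all tested genes, which is Pkp2 alone. At an unadjusted p under 0.05 the number was 1 of 10 (Gm6969), against 6.38% of all tested genes, so nothing is read from that 1 gene. DESeq2 gave a value for 8 members (not for Gm8730 and Gm15920) and called 0 of the 8, with 1 (Gm6969) at an unadjusted p under 0.05. Over all genes with a value it called 0.0895%, and 6.52% were at an unadjusted p under 0.05. Gm6969 averaged 5.60 ± 5.65 CPM in HET and 0.521 ± 0.159 CPM in WT (SD, n = 4 each), a log2 fold change of 3.42 (SE 1.11). The HET spread was as large as the HET mean because only 2 of its libraries were high. For Slc6a16 the means were 6.98 ± 8.06 and 8.64 ± 6.09 CPM, a log2 fold change of -0.30 (SE 1.64). Over the 8 remaining members the log2 fold change was -1.23 to 1.49, and 1 library decided some of these values: that of Gm14150 was -1.16, and -4.93 without HET replicate 4, and that of Gm8730 was 1.49, and 4.45 without WT replicate 3, none of them past the adjusted p of 0.05.

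Title sets did not separate the low from the high libraries in any of the 10 genes either. In 9 of 10 members the CPM ranges of title sets 1 and 2 overlapped. Gm12840 was at 8.46 to 9.75 CPM in set 1 and 0 to 6.02 CPM in set 2. HET replicate 2, which is in set 2, had 193 counts of Gm12840 and so was not low. Among all tested genes, 9.62% had ranges that did not overlap between these sets, so nothing is read from this 1 gene. Between sets 2 and 1, edgeR's test with genotype in the fit called 0 of 10 members, against 0.0137% of all tested genes. At an unadjusted p under 0.05 it was also 0 of 10, against 7.46% of all tested genes. DESeq2 called 0 of 10, against 0.54%, with 1 (Gm15920) at an unadjusted p under 0.05, against 5.21%. Without HET replicate 2, set 2 holds only WT replicates 3 and 4, and with genotype in the fit these stand against WT replicate 1 alone, which is assumed to vary like the other libraries. That fit called Ifi202b and Gm12840, which were chosen for being at or near 0 in these 2 libraries, so nothing is read from it.

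How common such steps are was measured over the whole table. For each of 12810 genes with at least 50 counts in its highest library, the 8 libraries were sorted by CPM + 0.1, and the largest ratio between neighbours was taken as its step. This step is not a fold change between groups, and for genes at 0 it depends on the 0.1 added. A step of 5-fold or more was found in 111 genes (0.867%), and all 10 members were among them, from Slc6a16 (99.8-fold, rank 4) and Gm12840 (33.4-fold, rank 13) to Gm5900 (9.05-fold, rank 70). Of the 111, 66 were high in 1 library and 3 in 7, which left 42 genes that, like the members, were high in 2 to 6 libraries. Those 42 fell into 26 different sets of high libraries, and 27 of them (64.3%) were pseudogenes, compared with 1.29% of the 12810 genes. The 42 include the 10 chosen members, of which 7 were pseudogenes and are counted in the 27. A stricter reading of on and off, under 0.1 CPM in a library and at least 0.5 CPM in another, held for 5 members (Slc6a16, Ifi202b, Gm12840, Spr-ps1 and Gm14150) and for 241 of the 38293 genes (0.629%). The other 5 kept 9 to 66 reads in their low libraries.

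**Figure D3:**
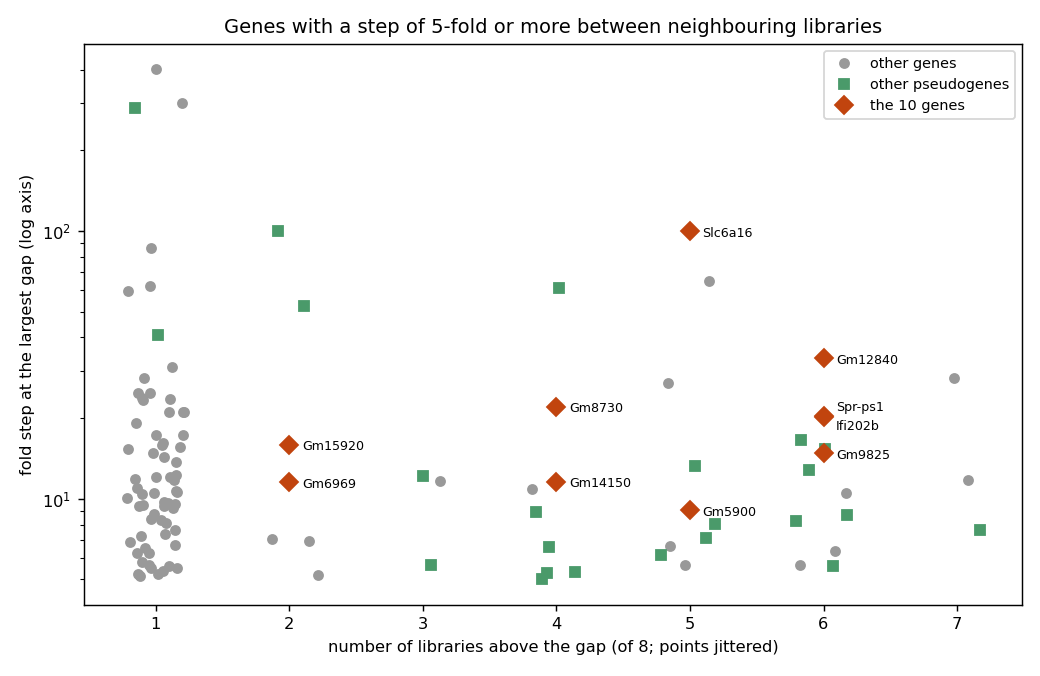
The 111 genes with a step of 5-fold or more: number of libraries above the step (x axis, of 8, jittered) against the size of the step (y axis, log scale), with the 10 genes as labelled diamonds, other pseudogenes as green squares and other genes as grey circles. Genes high in a single library form the column at the left, which holds few pseudogenes, and the 10 genes lie at 2 to 6 libraries.

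Which libraries went together differed from gene to gene. HET replicates 1 and 2 were on the same side of the step in all 10 members, although they belong to different title sets. In the 32 other genes high in 2 to 6 libraries, the same 2 libraries shared a side in 11 (34.4%). Over all 28 pairs of libraries the number of members on the same side was 4 to 10 with a median of 5, and the next pair was HET replicate 4 with WT replicate 1, at 8 of 10. No test was made on these counts, because the members were chosen by their patterns.

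Other genes shared these patterns. The measure of likeness was Pearson's r of log2(CPM + 0.1) over the 8 libraries, among 14320 genes with at least 20 counts in their highest library, given as a description of pattern only. The closest to Slc6a16 were Kif5c (r = 0.997), a kinesin motor gene on chromosome 2, Ftl2-ps (0.995), a ferritin pseudogene on chromosome 4, and Gm15545 (0.978), an antisense RNA on chromosome 7. Ftl2-ps was at 0 counts in the same 3 libraries as Slc6a16 and at 46 to 69 counts in the other 5. Kif5c was present throughout, with 43 to 60 counts in those 3 libraries and 229 to 305 in the rest.

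Among the 24 genes with r over 0.9 to Slc6a16, 11 lie on chromosome 7 with it, and several are its neighbours. Of 57 tested genes within 500 kb, 7 had r of 0.8 or more, and the median over the 57 was -0.14. They were Tead2, Slc17a7, Ppfia3, Gm15545, Bcat2, Ptov1 and Zfp473. Ppfia3 and Zfp473 had only 4 to 19 and 4 to 45 counts per library, so the order of libraries in these genes is uncertain. Bcat2, the mitochondrial branched-chain aminotransferase, lies 297 kb away and was at 124, 109 and 113 CPM in the libraries without Slc6a16 reads and at 168 to 188 CPM in the other 5. Slc17a7, a vesicular glutamate transporter gene 64.9 kb away, was at 15.5 to 26.8 CPM in the former and 28.5 to 54.8 CPM in the latter. Tead2, a transcription factor gene of the Hippo pathway 7.44 kb away, was at 4.65 to 6.54 CPM and 7.20 to 8.27 CPM. All 3 genes were lower, without overlap, in the 3 libraries in which Slc6a16 was silent. The nearest gene, Cd37, lies 1.97 kb away and did not follow (r = -0.52, 90 to 150 counts). Gm15545 is annotated as antisense, and whether counting used strand is not given, so its reads may include those of a gene on the other strand.

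**Figure D4:**
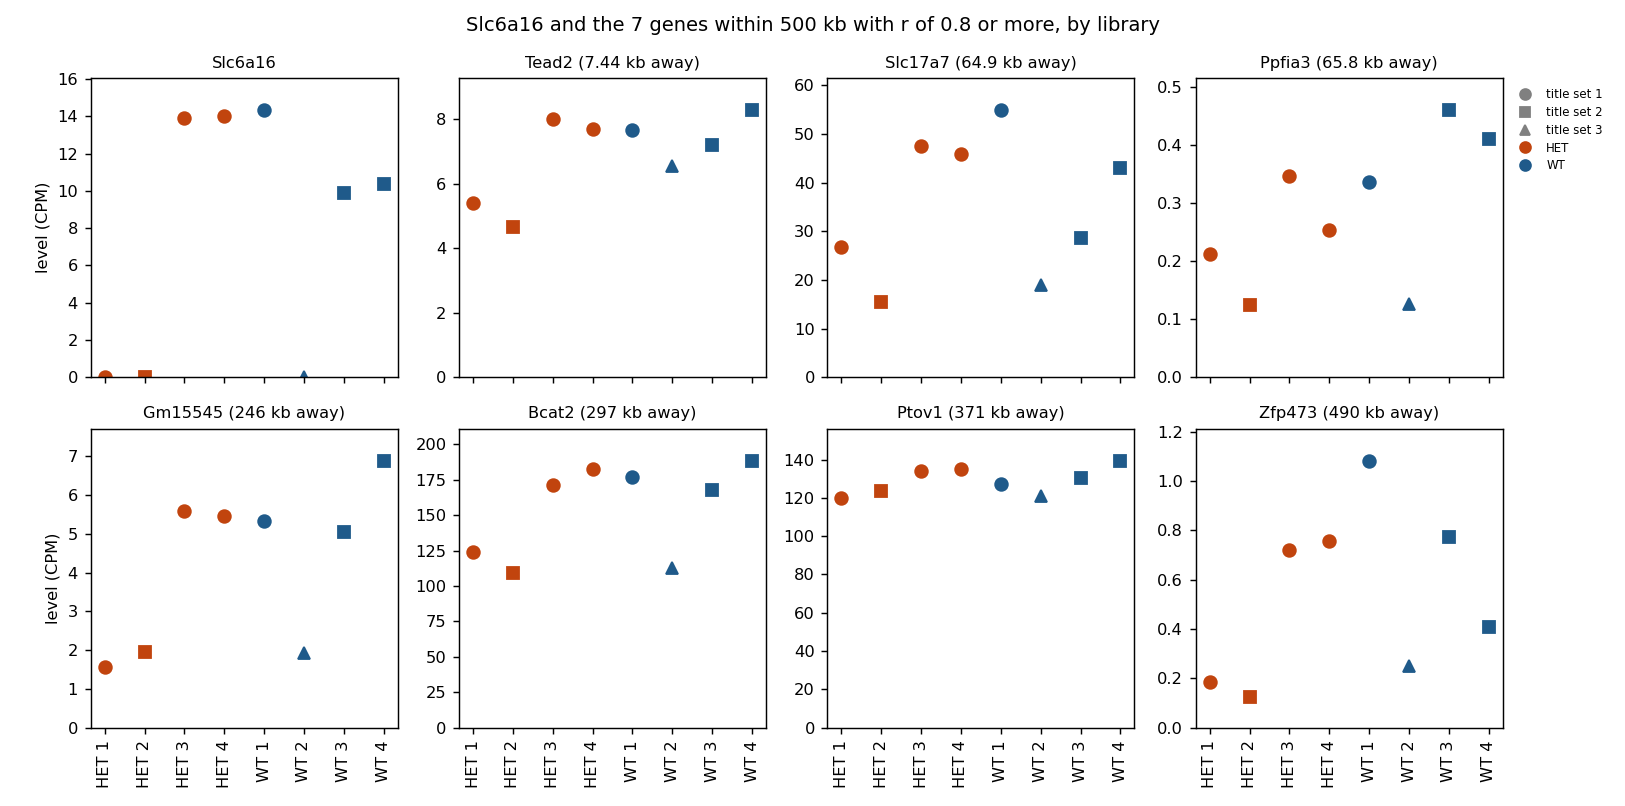
Level (y axis, CPM, from 0, own scale per panel) of Slc6a16 and of its 7 neighbours with r of 0.8 or more, by library (x axis), coloured by genotype with the title set as the marker shape. HET replicates 1 and 2 and WT replicate 2, in which Slc6a16 had no reads, are the 3 lowest libraries for Tead2, Slc17a7, Ppfia3, Gm15545, Bcat2, Ptov1 and Zfp473, with narrow margins for Slc17a7, Ppfia3 and Ptov1. Ppfia3 and Zfp473 rest on few reads, 4 to 19 and 4 to 45 counts per library.

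Ifi202b did not move with the genes closest to it. Its nearest tested neighbours, Ifi203 and Mndal, lie 19.9 and 20.1 kb away. In WT replicates 3 and 4, where Ifi202b had no reads, Ifi203 was at 40.4 and 29.2 CPM within a range of 29.2 to 41.5 CPM, and Mndal was at 26.3 and 19.1 CPM within 16.0 to 26.3 CPM. Only Aim2, the DNA sensor gene 497 kb away, reached an r of 0.8 among 13 neighbours: it was lowest in these 2 libraries, at 2.05 and 1.82 CPM against 2.21 to 2.77 CPM in the other 6. Ifi209 and Ifi208 of the same cluster ran the opposite way to Ifi202b, with r of -0.85 and -0.82. Of the 14 genes listed for the Ifi200 cluster, 13 were in the table, 12 were tested and 0 passed between HET and WT by edgeR's test, with a median log2 fold change of 0.031 against -0.0038 over all tested genes.

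The interferon response list and Ifi202b went opposite ways in WT replicate 3. All 22 listed genes, among them Ifit1, Irf7 and Isg15, were highest in this library, and 0 of 22 passed between HET and WT. In the Ifi200 cluster, 6 genes were highest there too, such as Ifi213 at 3.53 CPM against 0.293 to 1.33 CPM elsewhere and Ifi206 at 1.57 CPM against 0.0799 to 0.312 CPM. Ifi202b had 0 reads in this library. It also had 0 reads in WT replicate 4, where the summed interferon list was at 296.7 CPM, within the HET range of 236.7 to 345.3 CPM. Of the 6 cluster genes, Ifi208, Ifi209 and Ifi213 were second highest in WT replicate 4, at 1.82, 1.46 and 1.33 CPM. In the remaining libraries they stood at 1.09 to 1.51, 0.312 to 0.873 and 0.293 to 1.01 CPM. Ifi206, Ifi211 and Mndal in WT replicate 4 lay within the range of those remaining libraries. The macrophage list was highest in WT replicate 3 as well, at a summed 211.5 CPM against 141.9 to 161.0 CPM elsewhere. So were the erythroid list (416.7 CPM against 176.2 to 329.4 CPM, all 4 genes highest there) and the lymphocyte list (2.51 CPM against 1.28 to 1.76 CPM). The part of other cells in these levels was not tested.

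**Figure D5:**
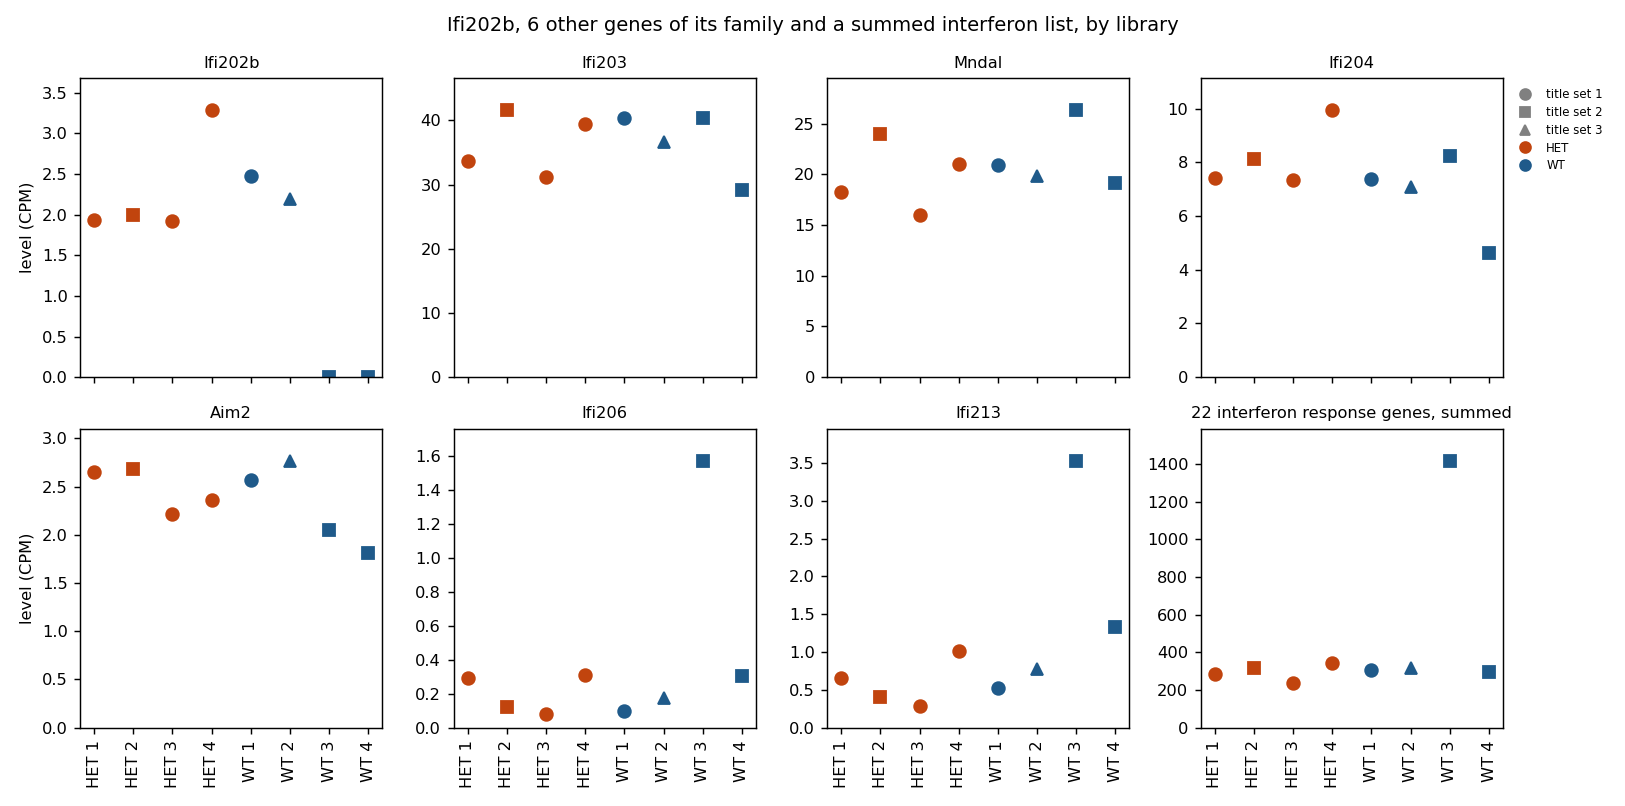
Level (y axis, CPM, from 0, own scale per panel) of Ifi202b, of 6 other genes of its cluster and of the sum of 22 interferon response genes, by library (x axis), coloured by genotype with the title set as the marker shape. WT replicate 3 is the highest library for Ifi206, Ifi213 and the summed list and has no Ifi202b reads. WT replicate 4 has no Ifi202b reads either and lies within the HET range for the summed list.

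The closest genes to Ifi202b were ENSMUSG00000081123, which has no entry in the annotation used (r = 0.989), Gm12840 (0.986) and Gm14267 (0.978), a transcribed pseudogene on chromosome 2. All 3 were low in WT replicates 3 and 4: ENSMUSG00000081123 had 21 and 17 counts there and 228 to 329 in the other 6, and Gm14267 had 20 and 23 against 132 to 203. The same genes headed the list for Gm12840. With both of these libraries left out, Ifi202b and Gm12840 had reads in every library. Among the 12 tested neighbours of Gm12840, 1 reached an r of 0.8, Ipo13, which codes for an importin and ranged 1.17-fold.

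Gm8730 and Gm9825 shared their patterns with pseudogenes at distant places. Gm9625 on chromosome 13, whose closest coding gene is also Rplp0, had the same high and low libraries as Gm8730 (r = 0.997), with 355 to 373 counts in the 4 high ones and 50 to 67 in the 4 low ones. Atp6v0c-ps2 (r = 0.995), on chromosome 6 like Gm9825 but 29822703 bases away, had 22 and 32 counts in HET replicate 3 and WT replicate 4 and 394 to 533 elsewhere. Glo1, which encodes the detoxifying enzyme glyoxalase 1, followed for Gm9825 (r = 0.988), after the pseudogene Gm13443 (0.995), at 50.9 and 55.0 CPM in those 2 libraries and 77.4 to 82.1 CPM in the other 6. Wsb2-ps (0.987) and Gm14165 (0.978) followed Gm9625 for Gm8730. Rplp0 is also the closest coding gene of Gm14165 (97.2% identity), and Glo1 is that of Gm13443 (99.5%). Reads of such relatives may match more than 1 of them, so they are not separate genes with a like pattern. How their reads were placed was not tested.

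For the remaining members the closest genes were expressed throughout and moved little. Lbr, the lamin B receptor gene, was closest to Gm14150 (r = 0.963) and ranged from 23.4 to 27.9 CPM. Phlpp1, a phosphatase gene, was closest to Gm15920 (0.984), Mcts1 to Gm5900 (0.964), Gpatch11 to Gm6969 (0.979) and 4930451G09Rik to Spr-ps1 (0.958). Next in order came Zfp607a and 4933406P04Rik for Gm14150, Nfyb and Wdr37 for Gm15920, Tradd and Chchd5 for Gm5900, Commd8 and Alg1 for Gm6969, and Syngr2 and Axin2 for Spr-ps1. None of the tested neighbours within 500 kb of Spr-ps1 (9 genes), Gm8730 (1), Gm14150 (7), Gm9825 (7), Gm15920 (19), Gm5900 (3) or Gm6969 (8) reached an r of 0.8. For Spr-ps1 these include Spr, the nearest, at 45.2 to 55.8 CPM and at 53.1 CPM in both libraries without Spr-ps1 reads.

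Among the tested genes of its family, Slc6a16 was the only one with such a step. All 20 Slc6 genes listed were in the table, 5 were tested and 0 passed between HET and WT by edgeR's test. Slc6a8, the creatine transporter, stood at 212.6 to 282.1 CPM, and Slc6a6, the taurine transporter, at 117.7 to 160.2 CPM. Slc6a9 and Slc6a17 ranged from 2.45 to 3.80 and from 2.12 to 7.30 CPM. The largest step among the 19 other genes of the family was 1.62-fold, in Slc6a13. Per kilobase of annotated exon, Slc6a16 reached 4.73 CPM in its highest library. Of the testis markers, Tnp1, Tnp2, Prm1 and Prm2 had no reads in any library. Ddx4, also on that list, had reads in every library, 8 to 34 counts (0.192 to 0.821 CPM).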

How the data were processed

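Poly(A) RNA of 4 HET and 4 WT ventricle samples was sequenced from stranded libraries, per the labels' protocols. The deposited table gives raw counts, the whole number of reads that fell on each gene. GRCm38/mm10, STAR 2.4.2a and HTSeq 0.6.1 are named in the submitters' processing notes; the annotation release, the strand setting and the treatment of reads with several matches are not given in the sources used here. Every column of the table matched 1 sample by its title, and title sets are libraries that share the first 4 of the last 6 digits in it. Replicates were numbered in accession order, so the numbers pair nothing, and p-values measure the spread between samples that the labels do not call separate animals.

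Counts were fitted with edgeR 4.0.16 in R 4.3.3 (TMM scaling, filterByExpr on group, 14567 genes, robust quasi-likelihood test, Benjamini-Hochberg adjustment over all tested genes, adjusted p of 0.05), for HET against WT and for title set 2 against title set 1 with genotype in the fit. The test was checked on simulated counts. DESeq2 1.42.0, RLE and library-size scaling, other filters and leaving out each library were the alternatives. CPM uses TMM-scaled library sizes. Counting intervals are 95% Poisson intervals, which cover counting error only. The closest coding gene is the best BLAST 2.17.0 hit (blastn) by bit score among protein-coding transcripts of other genes in GENCODE M21, which also gave positions. Symbols were matched for 36345 of 38293 identifiers.

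The members and the gene lists were chosen with earlier results of these data known. Named genes are the 10 members, the 3 genes of highest r with each, the 2 nearest tested neighbours where described and those within 500 kb with r of 0.8 or more, the closest coding gene of each pseudogene, the Slc6, Ifi200 and interferon lists, cell type markers and Pkp2. The step of 5-fold, the order of pseudogene and coding gene and the sharing between library pairs were added after the data were seen, as were the names Alb, Apoa1, Gm20186 and Rabgef1. Some known strain-variable genes are given in the closing section. A window of Gm14150 and the other strain-variable genes are not reported here.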

Additional observations from a re-analysis of the deposited data

Results flagged for a closer look

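In groups of 4 libraries, a library was singled out where its gap to the nearest other library divided by the group's whole range in CPM exceeded Dixon's 95% critical value. Of 34 groups examined (the 10 members and their closest coding genes in HET and in WT), 10 met this, and chance singles out about 1 group in 20. The members were chosen for standing apart in some libraries, so these ratios describe the choice. Among HET libraries, replicate 4 was far above the rest for Ifi202b (gap ratio 0.9431) and Gm14150 (0.9839) and far below for Spr-ps1 (0.9245) and Gm8730 (0.9182). HET replicate 3 was far below for Gm9825 (0.8951) and far above for Gm15920 (0.9849). Among WT libraries, replicate 3 was far above for Gm8730 (0.9906) and replicate 1 for Gm15920 (0.9836).

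Of the coding genes, only Rplp0 and Rnps1 were singled out, and only in HET. They were examined as the closest matches of chosen pseudogenes with which they share sequence, so they are no separate check on the choice. HET replicate 4 had the highest Rplp0 of its group (0.8759), where its Gm8730 was lowest. HET replicate 3 had the highest Rnps1 (0.955), where its Gm9825 was lowest.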

How the results depend on the processing

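No paired analysis was possible because replicate numbers were given in accession order and pair nothing. The number of members on and off by the CPM rule was 5 under all 11 alternatives. Over the table that rule gave 241 genes, 63 with limits of 0.05 and 1 CPM, 53 with 0.2 and 2 CPM, and 147 to 231 when a library was left out, the lowest without WT replicate 4. Between HET and WT, 1 gene was called, 2 with no filter, 13 by DESeq2 and 1 to 3 when a library was left out. Between title sets 2 and 1, 2 genes were called, 35 with no filter, 71 by DESeq2, 1 with no genotype term, and 1 to 8 when a library was left out. Of the members' log2 fold changes between HET and WT, 4 genes changed sign, in 17 of 139 values: Spr-ps1 to 1.505 with the title set as covariate, Gm9825 to -0.0246 with library-size scaling, and, when a library was left out, Slc6a16 (-0.88 to 0.11), Spr-ps1 (-0.44 to 0.40), Gm9825 (-0.38 to 0.41) and Gm15920 (-2.57 to 2.43). Between title sets, 2 members changed sign, in 8 of 139 values: Gm5900 to 0.078 by DESeq2 and -1.66 to 1.47 when a library was left out, and Gm9825 from -0.99 to 0.70. Steps of 5-fold or more numbered 111, with 170 at 3-fold, 62 at 10-fold and 77 to 115 when a library was left out, lowest without WT replicate 4. The order in which the coding gene was lower held for 3 member pseudogenes, 4 with library-size scaling and 3 to 5 when a library was left out. Gm6969 was not tested under the filter of 1 CPM in 4 libraries. The cause of these changes was not tested beyond the smaller number of samples or genes in each. A count of 0 limits a level only to 3 counts per library.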

Other observations

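Nnt, Gbp2b, Glo1 and Alad are known to differ between inbred strains, and none of these passed between HET and WT by edgeR's test (adjusted p 0.770 to 0.983). Alad, which codes for an enzyme of haem synthesis, passed between title sets 2 and 1 (log2 difference 0.68, adjusted p = 0.0255). It was at 42.5 to 49.7 CPM in the 4 libraries of title set 1, at 69.7 to 75.5 CPM in title set 2 and at 79.9 CPM in title set 3, so the sets did not overlap. Glo1 split the libraries in another way, with HET replicate 3 and WT replicate 4 low. Nnt, a mitochondrial transhydrogenase gene, had no such division and stood at 580 to 785 CPM.

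Besides the members, 32 genes were high in 2 to 6 libraries with a step of 5-fold or more. Among them, chosen after their values were seen, Rps3a3 is a pseudogene with a 61.2-fold step whose closest coding gene, Rps3a1 (98.9% identity), was at 84.4 to 89.3 CPM in the 4 libraries where Rps3a3 was high and at 127.8 to 141.1 CPM in the 4 others. For Atp6v0c-ps2 (99.8% identity to Atp6v0c) the same levels were 26.8 to 29.7 and 45.3 to 46.8 CPM, and for BC002163 (99.4% identity to Ndufs5) 19.1 to 26.2 and 39.8 to 43.5 CPM. In 1 of the 17 pseudogenes, Gm11223, the order was the opposite, with Stmn1 at 2.92 to 3.82 CPM where Gm11223 was high and 2.38 to 2.81 CPM elsewhere.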
